A study of Mus musculus with 41 samples.

Results

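The liver arrays of an inhalation study in mice are described here, 15 samples of the 41 in the series. They were taken by their labels as liver mRNA hybridized to 2-colour gene expression arrays, 7 from mice that inhaled nanoTiO2 and 8 from mice kept in filtered air. NanoTiO2 is surface-coated titanium dioxide of nanometre size, a pigment and UV filter. All mice were female C57BL/6 (the BomTac substrain in the methods), time-mated animals that had not conceived, with an age that the labels put as equivalent to GD4. The exposed group inhaled 40 mg/m3 by whole body for 1 h/day over 11 consecutive days, and both groups were killed 5 days after the last exposure. RNA came from a small random part of each frozen liver, so that the sampled lobe and zone could vary between mice, and 1 mouse gave 1 array. No gene was modified in either group, and 12 of the mice, 6 exposed and 6 control, also gave a lung array. On each array the Cy5 channel held liver RNA and the Cy3 channel held a reference RNA pooled from mouse cell lines, with no dye swap. Every value below is a log2 ratio of liver over that reference, and every difference is exposed minus control in log2 units, unless said otherwise.

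The liver answers inflammation elsewhere in the body through cytokines in the blood, chiefly interleukin-6 and interleukin-1, which act on hepatocytes. Hepatocytes then make more of the positive acute-phase proteins, such as serum amyloid A, fibrinogen, hepcidin and complement factors, and less of the negative ones, such as albumin, transthyretin and apolipoprotein A1. The resident macrophages of the liver, the Kupffer cells, line the sinusoids and take up particles that reach the blood. Liver transcripts also follow feeding and the time of day more strongly than those of most tissues.

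The samples were liver by their markers. Of 15 hepatocyte genes, 14 were measured, with a median log2 ratio of 5.64 over the reference and a median difference of −0.14 (0.08 in the planned fit, 10 of 14 higher), and the carbamoyl-phosphate synthase gene Cps1 lay between 8.73 and 9.79 in all mice. Among the markers of lung epithelium, surfactant genes Sftpc and Sftpb and the receptor gene Ager did not stand well above background in most arrays. The other 5 of 8 such markers were measured, with a median log2 ratio of 0.38, among them the surfactant gene Sftpd at 1.23 to 3.71 and the phosphate transporter gene Slc34a2 at 0.41 to 1.38 across mice. Digestive enzyme genes of the pancreas were near the level of the reference, with a median of 0.07 over 12 genes. In Cy5, 56.6% to 70.0% of spots stood well above background in exposed mice and 55.1% to 70.5% in controls. The number of arrays, 7 against 8, limits the precision. Bulk RNA cannot tell fewer cells of a type from less RNA per cell, and this holds for every cell type below.

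Slides separated the livers more than exposure did. The 4 slides are called blocks 1 to 4 in the order the labels number their hybridizations, and each carried both groups. Exposed mice lay at positions 1 and 2 and controls at positions 3 and 4 of each slide, and the effect of position cannot be told apart from that of exposure. Block 1 held 1 exposed liver, of mouse 1, and 2 control livers, while blocks 2 to 4 held 2 of each. Every difference given below for block 1 therefore rests on 1 exposed mouse. Over 25669 probes, pairs of arrays correlated at 0.965 to 0.992. Pairs on the same slide averaged 0.988 within a group and 0.987 between groups, while pairs on different slides averaged 0.978 within a group and 0.978 between groups. The array most alike lay on the same slide for 14 of 15 mice and in the same group for 8. Slide accounted for a median of 39.7% of the variance of a probe and exposure for 2.33%, on 3 and 1 degrees of freedom.

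The planned background correction acted unevenly on control arrays. Control mice 24 and 26, both in block 1, had 17 and 13 spots with a local Cy5 background over 1000, up to the scanner's ceiling of 65535, while every array had a median local background between 80.5 and 83. The normexp method estimated a mean background of −686 and −643 on these 2 arrays, −47.9 on that of control mouse 27, −16.6 on that of control mouse 29 and −13.4 to −6.83 on the other 11. Leaving out spots with a marked local background gave −8.45 to −6.20 on all 15. With the planned correction, differences followed the level of the probe. Probes over 5 in log2 ratio lay higher in exposed livers by a median of 0.39 and those under −3 lay lower, with a median of −0.35, whereas without correction these medians were −0.11 and −0.05. For this reason the values below were computed without background correction, a setting that was planned as an alternative, and the planned value is given beside lists and genes for which it has the other sign. Even without correction the 380 brightest probes relative to the reference lay lower in exposed livers, 16.6% of them above 0, with medians of −0.11, −0.06, −0.17 and −0.07 in blocks 1 to 4. Genes far above the reference, such as those of most secreted liver proteins, are to be read against that shift, and its part in their differences was not tested.

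**Figure D1:**
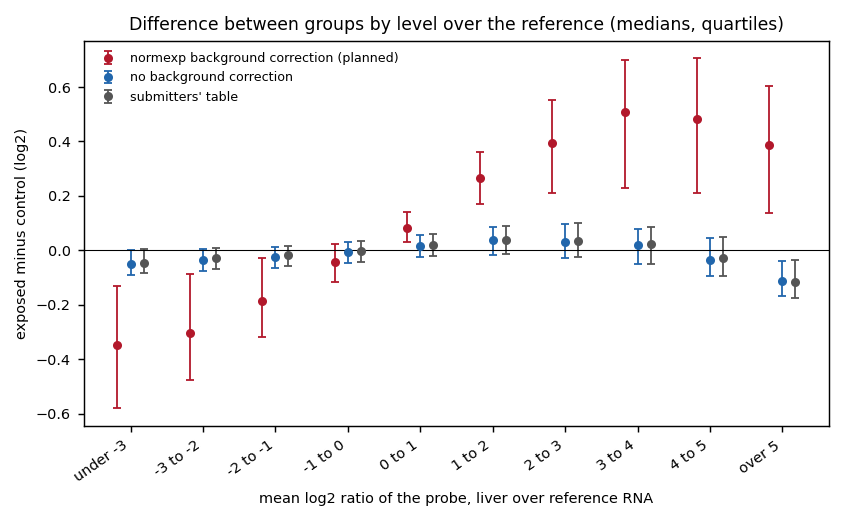
Median difference between exposed and control livers (log2, vertical axis) against the mean log2 ratio of the probe to the reference RNA (horizontal axis, in bins), for several background treatments, with quartiles as bars. With the planned normexp correction the median runs from −0.35 in the lowest bin to 0.39 in the highest, and without correction from −0.05 to −0.11.

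No gene in liver passed the threshold by limma after inhalation of nanoTiO2. The paper, with a different test, reports a small number of liver genes at an adjusted p under 0.05 and calls their changes modest. By limma, the authors' own table of log2 ratios also gave 0 calls. The reason for this difference from the paper was not tested. Of 41174 probes, 0 were called at an adjusted p under 0.05 by limma (0%), both in the planned fit, where the lowest adjusted p was 0.163, and without background correction. At an unadjusted p under 0.05, 663 probes (1.61%) lay higher and 785 (1.91%) lower without correction, against 2058 (5%) and 1339 (3.25%) in the planned fit. Without control mice 24 and 26 the planned fit gave 0 calls and 1487 probes at an unadjusted p under 0.05. The data were precise enough to bound most changes. Among 25508 probes measured in both groups, the 95% interval of the difference lay within 1.5-fold in either direction for 97.6%, and within 2-fold for 99.6%. In the planned fit these shares were 81.3% and 93.7%. Every exposed mouse lay above every control in 5 of 41109 probes (0.0122%) and below in 8 (0.0195%). Those above were Agtrl1, Wtap, 1700019M22Rik, Wnt3 and AK037123.

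The genes that the study names in lungs of these mice were then read in liver. Of 46 such genes, 39 were measured in liver and 0 passed the test. Their median difference was −0.07, with 6 higher and 33 lower, 6 of those lower at an unadjusted p under 0.05, while over 18378 measured genes with 1 probe each the median was 0, 49.8% lay higher, and 1.08% and 1.62% lay higher and lower at that level. In the planned fit 62.1% of those genes lay higher, 5.98% and 3.06% higher and lower at that level, and the counts of each gene list below are to be read against these shares. Saa3, an inflammatory serum amyloid A made outside the liver as well as in it, differed by 2.22 in lung and by −0.03 in liver. Noxo1, which organizes an NADPH oxidase, differed by 1.58 in lung and −0.003 in liver, and Ly6f, a surface protein of the Ly6 family, by 2.30 and 0.01. Among chemokine genes, Ccl2, which draws monocytes, was at 0.89 and 0.03 (−0.02 in liver in the planned fit), Ccl7 at 1.07 and −0.001, and Ccl9 at 0.99 and 0.02. Ccl22 was at −0.02 and −0.01, and Cxcl12 at 0.22 and −0.05 (0.02 in liver in the planned fit). In liver Ly6f stood well above background on 5 of 15 arrays and Ccl22 on 0, so their liver values lie near the floor. For lipocalin Lcn2 the values were 1.74 and −0.08, for the anion exchanger Slc26a4 1.81 and −0.01 (0.18 in liver in the planned fit). The growth factor Csf2 was at 0.93 and 0.001, and in the planned fit at 0.20 in lung (adjusted p = 0.8 by limma) and −0.07 in liver, where it stood well above background on 0 of 15 arrays. Vnn1, a pantetheinase under control of PPAR alpha, was the member that lay highest in liver, at 0.35 (SE 0.23).

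The difference between the 2 tissues was tested for each probe in 1 fit over lung and liver arrays. The effect in lung minus that in liver was called for 7 probes (0.017%) in the planned fit, 6 with the larger value in lung. Mouse as a replicate block raised this to 13 probes, and leaving out background correction to 50 (0.121%), of which 45 were larger in lung. Saa3 differed between tissues by 2.23 (adjusted p = 0.0046 by limma in the planned fit) and Noxo1 by 1.45 (adjusted p = 3.2e-05), with Ccl2 at 0.95 (adjusted p = 8e-04) and Trem2, a receptor of lipid-handling macrophages, at 1.08 (adjusted p = 0.01). The planned test between tissues gave an adjusted p of 0.18 for Ccl7 and 0.24 for Ccl9 by limma. Without background correction it was 2e-06 for Ccl7 and 8.6e-05 for Ccl9 by limma, so that both were called in that setting. Saa1 differed by 1.18 in lung and −0.06 in liver without correction, and the test of that difference gave an adjusted p of 0.11 by limma.

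**Figure D2:**
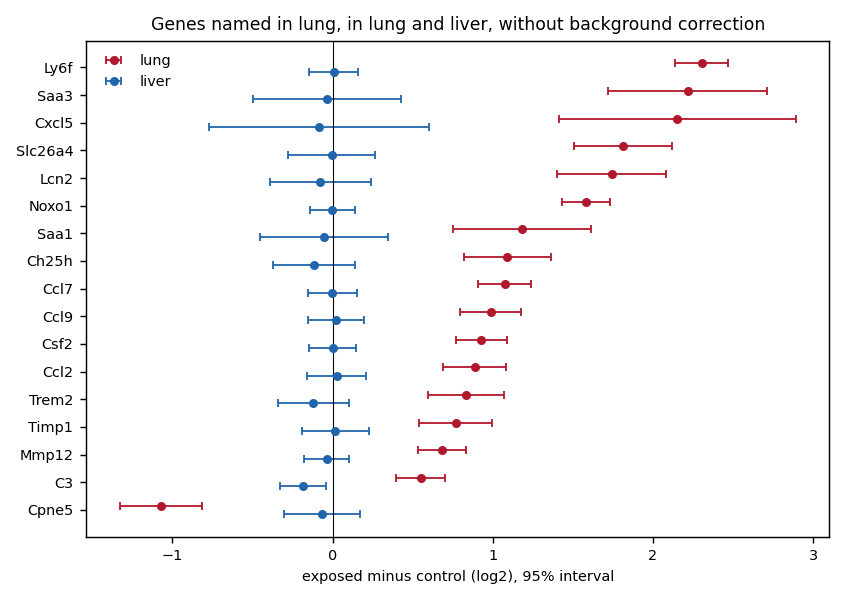
Exposed minus control difference (log2, horizontal axis) with its 95% interval for genes the study names in lung, in lung and in liver, without background correction. In liver Saa3 lies at −0.03 and Noxo1 at −0.003, against 2.22 and 1.58 in lung.

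The serum amyloid A genes, which mark a hepatic acute-phase response in mice, were read by designed probes of 60 bases. Those of Saa3 and of the second Saa1 probe are shown as examples of the probes behind the values that follow. By the headers of the lung arrays, which carry the same design, the Saa3 probe lies at chr7:42888862-42888921 and the Saa1 probe between 42916998 and 42917470 of chromosome 7 in build mm7, over a span longer than the probe itself. Both are transcribed towards lower coordinates as listed there.
Saa3 probe: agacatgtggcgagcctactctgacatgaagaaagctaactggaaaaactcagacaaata
Saa1 second probe: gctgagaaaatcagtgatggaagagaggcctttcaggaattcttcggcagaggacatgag

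Serum amyloid A did not differ between the groups beyond the spread of the mice. The brightest Saa1 probe ran from 2.30 through a median of 2.68 to 3.50 in exposed mice and from 2.41 through 2.65 to 3.66 in controls, and the groups overlapped over almost their whole range. Its difference of −0.06 (SE 0.19, n = 7 and 8) had a 95% interval of −0.46 to 0.35 and an exact permutation p of 0.76, and was 0.11 in the planned fit. The second Saa1 probe gave −0.15 (SE 0.12), or 0.54 in the planned fit. Saa3 ran from −1.08 through −0.94 to 0.04 in exposed mice and from −1.11 through −0.80 to 0.29 in controls, with a difference of −0.03 (SE 0.20), so that exposed and control livers again overlapped almost fully. Saa2 differed by −0.08 (SE 0.05) and Saa4, the constitutive member, by −0.17 (SE 0.08), or 0.27 and 0.41 in the planned fit.

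The acute-phase genes as a list, serum amyloid A included, did not lie higher either. Of 32 listed, 31 were measured and 0 were called. The median was −0.09, with 5 higher and 26 lower, 7 of those lower at an unadjusted p under 0.05 and 0 higher. The planned fit gave a median of 0.08, with 19 higher and 12 lower. The fibrinogen beta chain Fgb differed by −0.32 (SE 0.10, exact permutation p = 0.013, n = 7 and 8), with 0.02 in the liver channel Cy5 and 0.15 in the reference channel Cy3 when each was scaled alone. Hemopexin, on the array as Hpxn, differed by −0.26 (SE 0.06). Hepcidin, the hormone that lowers iron uptake, listed as Hamp1, differed by −0.21 (SE 0.09). The orosomucoid Orm1 differed by −0.03 (0.62 in the planned fit). For the ferric reductase gene Steap4, the member that lay highest, the value was 0.16 (SE 0.10).

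The negative acute-phase proteins lay lower in all 10 genes without correction, with a median of −0.19 and 7 at an unadjusted p under 0.05, though 0 were called. The planned fit gave a median of −0.07, with 4 higher and 6 lower. Albumin (Alb1 on the array) ran from 3.99 through 4.07 to 4.39 in exposed mice and from 4.25 through 4.41 to 4.61 in controls. All 7 exposed livers lay under the control mean and the ranges overlapped. The difference was −0.32 (SE 0.07, 1.24-fold, 95% interval −0.46 to −0.17), the exact permutation p was 0.002, and the planned fit gave −0.29. The adjusted p by limma was 1 without correction and 0.55 in the planned fit. Within blocks 1 to 4 albumin differed by −0.11, −0.33, −0.49 and −0.24. Apoa1, the main protein of high-density lipoprotein, differed by −0.21 (SE 0.06, exact permutation p = 0.0065, n = 7 and 8), retinol carrier Rbp4 by −0.22 (SE 0.07) and fetuin Ahsg by −0.20 (SE 0.07), while transthyretin Ttr differed by −0.09 (0.63 in the planned fit).

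The channels were also read apart. The ratio sets liver RNA against reference RNA, and the reference was the same on each array. When each channel was scaled between arrays on its own, the negative acute-phase genes had a median difference of −0.04 in Cy5, the liver channel, and 0.07 in Cy3, the reference channel. Albumin differed by −0.04 in Cy5 and 0.10 in Cy3, and Rbp4 by −0.04 in both. Channels scaled apart do not add up to the ratio, and 4 of the 10 negative acute-phase genes lay lower in Cy3 too. Hepatocyte markers as a group had 0.02 in Cy5 and 0.09 in Cy3, against a ratio of −0.14. Across all probes 0 were called in either channel, with 715 at an unadjusted p under 0.05 in Cy5 and 2317 in Cy3. The part of position on the slide in these values cannot be told apart from exposure.

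Complement and coagulation factors, which hepatocytes make for the most part, gave a similar pattern. Of 55 listed genes, 52 were measured and 0 called. Without correction the median was −0.13, with 9 higher and 43 lower and 15 lower at an unadjusted p under 0.05, and it lay between −0.14 and −0.08 in the 4 blocks. The planned fit gave a median of 0.09, with 36 higher and 16 lower. Channel by channel it was −0.03 in Cy5 and 0.03 in Cy3. Complement component C3 differed by −0.18 at 1 probe (SE 0.06, exact permutation p = 0.0098, n = 7 and 8) and by −0.01 at another, or 0.63 there in the planned fit, and kininogen Kng1 by −0.29 (SE 0.08). In lung C3 differed by 0.55, and the test between the tissues gave an adjusted p of 0.00022 by limma without correction and 0.15 in the planned fit.

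**Figure D3:**
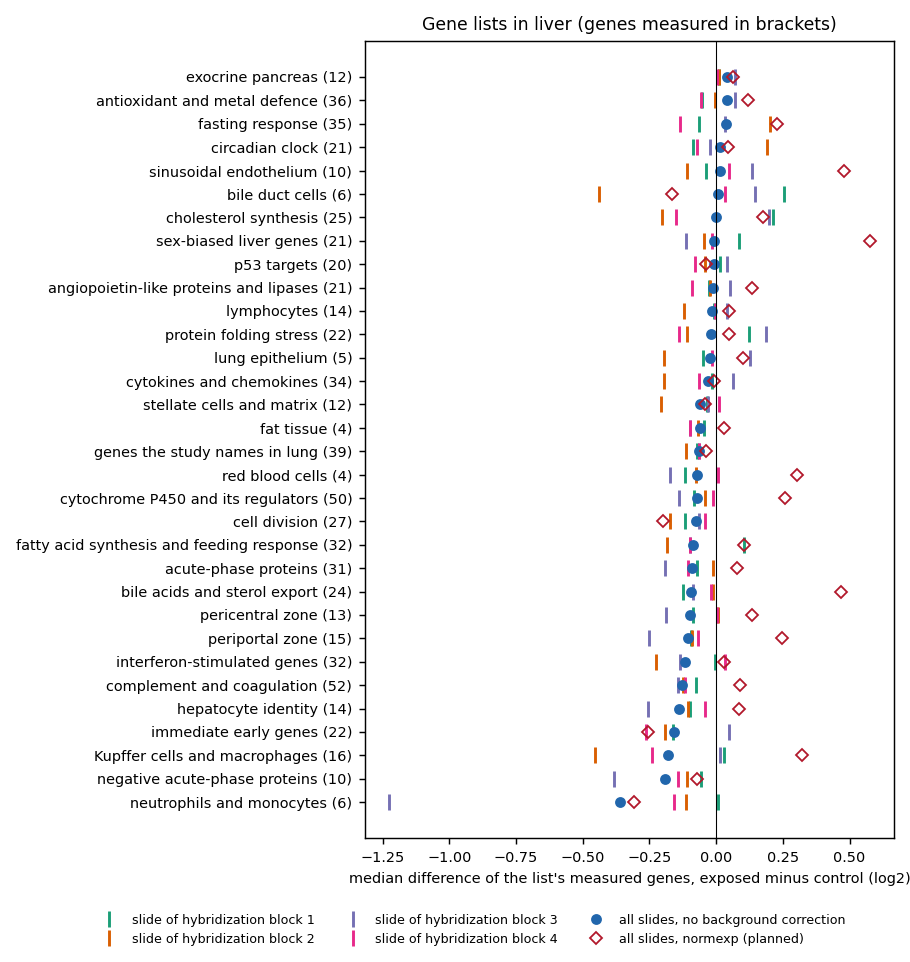
Median difference of each gene list (log2, horizontal axis), with the number of measured genes in brackets. Circles show all slides without background correction, open diamonds the planned normexp fit, and vertical ticks the 4 slides. The negative acute-phase list lies at −0.19 and the Kupffer list at −0.18 without correction, and at −0.07 and 0.32 with it.

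Among single genes, the transcript listed as similar to hepatocellular carcinoma-associated gene TD26 gave one of the lowest differences. The paper reports this transcript as the largest of its liver changes, lower in exposed mice. The array names it LOC624219 and its current symbol is Angptl8. It encodes an angiopoietin-like hormone of liver and fat that insulin and feeding induce and that restrains lipoprotein lipase. Its 2 probes lie on chromosome 9 in build mm7 by the lung array headers. The probe with the larger difference is shown, since the values turn on it, though it is the dimmer of the 2. The headers place it between 21718456 and 21719280, a span longer than the probe.
LOC624219 probe: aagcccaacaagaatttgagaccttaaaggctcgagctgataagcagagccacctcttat

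At this probe the exposed livers measured 3.14 in mouse 1, 3.04 in mouse 9, 2.62 in mouse 12, 2.42 in mouse 13, 2.91 in mouse 19, 2.75 in mouse 20 and 2.53 in mouse 23. Controls measured 3.63 in mouse 24, 2.91 in mouse 26, 2.70 in mouse 27, 3.56 in mouse 29, 3.69 in mouse 32, 3.46 in mouse 34, 3.69 in mouse 37 and 3.60 in mouse 45. Control mice 26 and 27 lay within the exposed range and the other 6 controls lay above every exposed mouse. The difference was −0.63 (SE 0.16, 1.55-fold, 95% interval −0.97 to −0.30), with an exact permutation p of 0.0053 and an adjusted p of 1 by limma. In blocks 1 to 4 it was −0.13, −0.30, −0.91 and −1.01, and the planned fit gave 0.05. Normexp without the spots of marked local background gave −0.61, and the authors' own table gave −0.62.

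The second probe of LOC624219, the brighter of the 2, lay lower as well, by a smaller amount. It ran from 3.44 through 3.64 to 3.85 in exposed mice and from 3.65 through 3.89 to 4.02 in controls, so that the ranges overlapped. The difference was −0.19 (SE 0.07, exact permutation p = 0.019, n = 7 and 8), or 0.16 in the planned fit. In Cy5 alone it was −0.78 and in Cy3 alone −0.56, whereas the probe shown above gave −0.71 and −0.10. Among 21 measured angiopoietin-like proteins, lipases and their partners the median was −0.01, with 9 higher and 12 lower and 0 called, while the planned median was 0.13, with 15 higher and 6 lower and 2 higher at an unadjusted p under 0.05. Angptl4, which fasting induces, differed by 0.26 (SE 0.39) and hepatic lipase Lipc by −0.01 (0.57 in the planned fit).

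**Figure D4:**
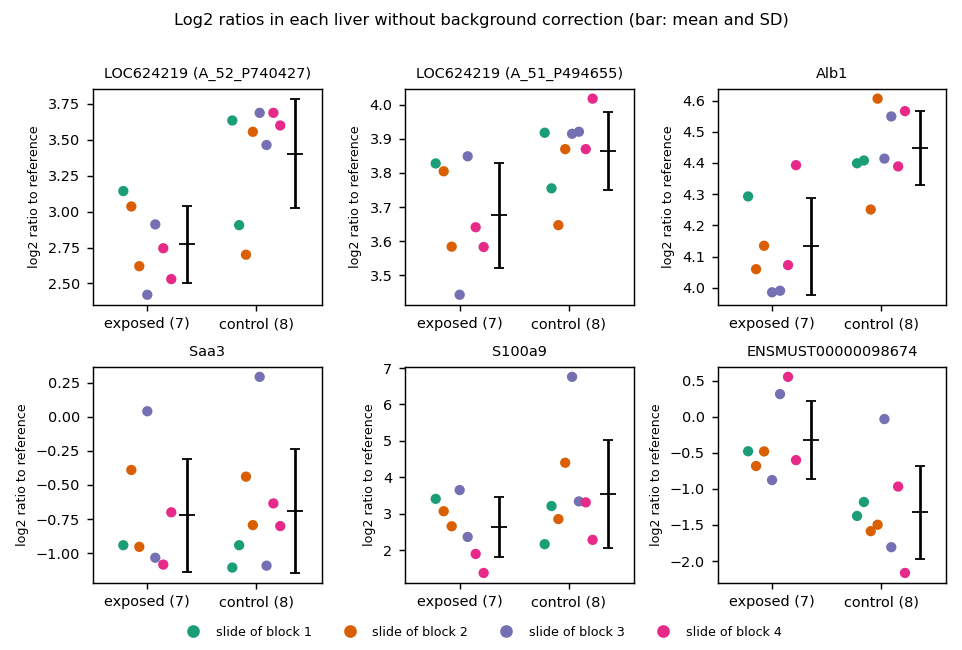
Log2 ratio to the reference (vertical axis) of single genes in each of the 7 exposed and 8 control livers, without background correction, coloured by slide. For the dimmer LOC624219 probe the exposed mice span 2.42 to 3.14 and the controls 2.70 to 3.69.

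Kupffer cell and macrophage markers lay lower in every one of 16 genes without correction, with a median of −0.18 and 4 at an unadjusted p under 0.05, none of them called. Clec4f, a lectin that defines Kupffer cells, ran from 5.22 through 5.47 to 5.63 in exposed mice and from 5.38 through 5.61 to 5.83 in controls, with a difference of −0.17 (SE 0.07). Cd5l, a scavenger protein of resident macrophages, differed by −0.20 (SE 0.07), and the F4/80 gene, on the array as Emr1, by −0.29 (SE 0.16). Lysozyme, listed as Lyzs, differed by −0.34 (SE 0.16, exact permutation p = 0.071, n = 7 and 8). The complement gene C1qc gave −0.18 (SE 0.05, exact permutation p = 0.0034, n = 7 and 8). In the planned fit 10 of the 16 lay higher, with a median of 0.32, among them Clec4f at 0.50, Cd5l at 0.47 and C1qc at 0.30. The lower values stood in the liver channel, with a median of −0.28 in Cy5, 16 of 16 lower, against −0.04 in Cy3. They stood in 2 of the 4 slides, with medians of 0.03, −0.46, 0.02 and −0.24 in blocks 1 to 4. By mouse, the median level of the list was 2.51 to 3.42 in exposed livers and 2.64 to 3.65 in controls, so that the groups overlapped.

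Neutrophil and monocyte genes were near the level of the reference, and 6 of 13 were measured, with a median of −0.36. The calgranulin S100a9 ran from 1.38 through 2.66 to 3.65 in exposed mice and from 2.17 through 3.27 to 6.76 in controls, a difference of −0.91 with an SE of 0.57. For its partner S100a8 the difference was −0.48 (SE 0.37). Both genes held 1 high control, mouse 32, which had 2.17 for S100a8 where no other control passed −0.04. In the planned fit S100a9 differed by −0.25, and by 0.29 without that mouse. The same mouse had the highest control value for Saa1 (3.66) and for Lcn2 (1.25). Markers of lymphocytes, sinusoidal endothelium, stellate cells and bile duct had medians of −0.02, 0.01, −0.06 and 0.01, with 0 called in each. The planned medians were 0.05 for lymphocytes, 10 of 14 higher, and −0.16 for bile duct, 5 of 6 lower. Endothelial markers lay at 0.48 in that fit, 10 of 10 higher, and Oit3, the endothelial marker that lay highest, was at 0.70 there and at 0.09 without correction.

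Cytokine and chemokine genes gave no sign of a call in liver. Of 34 measured, 24 lay lower and 10 higher, with a median of −0.03. Ccl27 was the highest at 0.11 and Cxcl1, a neutrophil attractant, the lowest at −0.34 (SE 0.27). Tnf was measured at −0.02 (SE 0.04).

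Interferon-stimulated and immediate early genes lay lower in most members, again without a call. Of 32 interferon genes, 29 lay lower, with a median of −0.12 and 3 at an unadjusted p under 0.05, and 18 of them lay higher in the planned fit, at a median of 0.03. Isg15, a ubiquitin-like modifier, differed by −0.28 (SE 0.13) and Ifit2 by −0.22 (SE 0.09). The medians by slide were 0.00, −0.23, −0.14 and 0.03. Of 22 immediate early genes, which answer stimulation and handling within minutes, 20 lay lower, with a median of −0.16 and 0 at an unadjusted p under 0.05. Egr1 ran from −3.51 to −0.24 in exposed mice and from −3.27 to 0.44 in controls, with a difference of −0.56 and an SE of 0.59. Fos differed by −0.53 (SE 0.36). For Myc the brightest of its probes gave −0.35 (SE 0.29) and another −0.41 (SE 0.26). At the latter, control mice 32 and 37 measured −1.26 and −1.81, the other 6 controls −3.21 to −2.73 and exposed mice −3.24 to −2.95, so that 2 controls stood apart from the rest.

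Genes of stress defence did not differ beyond the spread of the mice. Of 36 measured antioxidant and metal defence genes, which nuclear factor Nrf2 or metals induce, 23 lay higher and 13 lower, with a median of 0.04, and 0 had an unadjusted p under 0.05 without correction. Glutathione transferase Gsta2 differed by 0.30 (SE 0.18), haem oxygenase Hmox1 by −0.04 (SE 0.10) and metallothionein Mt1 by 0.16 (SE 0.38). Targets of p53 had a median of −0.01 over 20 genes and protein folding genes one of −0.02 over 22 (0.05 in the planned fit, 12 higher and 10 lower). The chaperone Hyou1, the highest of the latter, was at 0.46 with an SE of 0.34. With each channel scaled alone, that probe gave 0.36 in Cy5 and −0.11 in Cy3, and a second Hyou1 probe −0.07 and 0.02. Of 27 cell division genes, 26 lay lower, with a median of −0.08 and 3 at an unadjusted p under 0.05. These genes lie far under the reference, which is made of dividing cell lines, at a median ratio of −3.02, where all probes under −3 also had a median of −0.05. Nusap1, a spindle protein, differed by −0.16 (SE 0.05) without correction and by −0.80 in the planned fit.

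Metabolic gene lists had no called member, and their medians depended on background correction. Cytochrome P450 genes, which oxidize drugs, steroids and fatty acids, had a median of −0.07 over 50 measured genes, with 16 higher and 34 lower and 10 lower at an unadjusted p under 0.05. Cyp2d26 differed by −0.24 (SE 0.07, exact permutation p = 0.0054, n = 7 and 8), with 0.12 in Cy5 and 0.17 in Cy3. Cyp3a11, the main drug-metabolizing form, differed by −0.20 (SE 0.06), and Cyp2c44 by −0.27 (0.28 in the planned fit). Cyp26a1, which degrades retinoic acid, lay highest at 0.43 (SE 0.39). In the planned fit the list had a median of 0.26, with 41 higher. Genes of bile acid synthesis and sterol export had −0.09 without correction and 0.47 with it, 23 of 24 higher. The nuclear receptor Nr5a2 lay highest of these, at 0.26 (SE 0.16), and the organic anion carrier Slco1a1 lowest, at −0.63 (SE 0.73), or 0.08 in the planned fit.

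Feeding and fasting genes had small median differences and 0 calls. The fasting list, mostly targets of PPAR alpha, had a median of 0.04 over 35 genes, with 22 higher, and the thioesterase Acot1 was highest at 0.44 (SE 0.39). The fatty acid hydroxylase Cyp4a10 gave −0.01 at its brightest probe (0.40 in the planned fit) and 0.38 (SE 0.26) at another. Fatty acid synthesis genes had a median of −0.09, with 25 of 32 lower, and 0.11 in the planned fit, with 24 of 32 higher. Acly, which makes cytosolic acetyl-CoA, differed by −0.29 (SE 0.15), and Dgat1, of triglyceride synthesis, by 0.13 (SE 0.06). Cholesterol synthesis genes had a median of 0 with 13 of 25 higher, against 0.17 with 25 of 25 higher in the planned fit. Pericentral and periportal zone genes had medians of −0.10 over 13 and −0.11 over 15 genes, against 0.14, 12 of 13 higher, and 0.25, 13 of 15 higher, in the planned fit. Sex-biased genes had −0.01 over 21, and 0.58 in the planned fit.

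The 12 lowest and 12 highest differences of the planned fit among measured probes with an unadjusted p under 0.05 lay between −0.88 and −0.71 and between 0.95 and 1.22. Those of the same probes without correction were −0.41 to −0.14 and 0.14 to 0.38, and each had an adjusted p of 0.55 by limma. The lowest were Fignl1, Myc, Shcbp1, Gata3, Tacc3, Sgol1, Ect2, 2 probes of Pla2g4a, Ncam1, Kntc1 and 4732435N03Rik. Fignl1 was at −0.88 in the planned fit and at −0.18 (SE 0.08) without correction. Pla2g4a, the phospholipase that frees arachidonic acid, was at −0.75 and −0.18 (SE 0.05, exact permutation p = 0.0033, n = 7 and 8). It was named by its rank on these same arrays, so that this p is no separate support. With each channel scaled alone, that Pla2g4a probe gave −0.068 in Cy5 and 0.042 in Cy3, and its second probe 0.008 and 0.098. The highest included Dct, Cyp4a10, E2f8, A1bg, Apoa4 and Mal2. Dct was at 1.22 in the planned fit and at 0.38 (SE 0.25) without correction, and Apoa4, a lipoprotein gene of liver and gut, at 0.96 and 0.27 (SE 0.19). With each channel scaled alone, that Dct probe gave 0.34 in Cy5 and 0.04 in Cy3, and a second Dct probe −0.015 and −0.021.

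Without correction, a ranking chosen after the data had been seen, the highest difference among such probes belonged to the transcript ENSMUST00000098674. Exposed mice ran from −0.88 through −0.48 to 0.55 and controls from −2.17 through −1.44 to −0.03. All exposed mice lay above the control mean and the groups overlapped. The difference was 1.00 (SE 0.28, 2.01-fold, 95% interval 0.42 to 1.59), with an exact permutation p of 0.007, an adjusted p of 1 by limma and 0.76 in the planned fit. The difference of slide means had the same sign in each slide, at 0.80, 0.96, 0.64 and 1.54 in blocks 1 to 4, with 1 exposed mouse in block 1. A second transcript of the same gene, 2410076I21Rik, differed by 0.42 (SE 0.15). Mkx, a homeobox gene of tendon, differed by 0.43 (SE 0.14), the UDP-glucuronosyltransferase Ugt1a9 by 0.34 (SE 0.13) and glycerol kinase Gyk by 0.40 (SE 0.14) at 1 of its probes. In Cy5 scaled alone, that Gyk probe gave 0.263 and other Gyk probes 0.039 to 0.065. Among the lowest were the apolipoproteins Apoh at −0.32 (0.09 in the planned fit) and Apoc1 at −0.33 (SE 0.10), and the guanylate-binding protein Gbp1 at −0.35.

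Clock genes were among the genes that varied most between these livers, and their levels followed the slides. This was not particular to clock genes. Other variable probes followed the slides more closely, such as those of Olfr644 and Olfr638, where slide held 98.3% and 99.0% of the variance. Among other lists, the median share was 56.8% for lung epithelium and 54.7% for cell division. Dbp, an output gene of the circadian clock, averaged −1.29 in block 1, 0.46 in block 2, 1.57 in block 3 and 2.12 in block 4. Tef, of the same family, averaged −0.30, 0.53, 1.28 and 1.78. The activator Arntl, whose peak lies opposite to theirs in the day, ran the other way, from 1.24 through 0.51 and −0.52 to −1.42. Nfil3, a repressor in phase with Arntl, ran from 0.46 through 0.28 and −0.44 to −0.95. Per2 averaged 0.06, 0.25, 1.04 and 1.77, and Usp2 lay at −0.85, −0.86, 0.78 and 2.13. Slide held over 50% of the variance in 17 of 21 clock genes, with a median of 71.7%. In block 3, however, the mice split across the groups. The median level of the clock list there was 0.145 in exposed mouse 13 and 0.37 in control mouse 32. It was 1.335 in exposed mouse 19 and 1.248 in control mouse 34. Mouse numbers run in the same order as the blocks within each group, and the labels give no time of day, so that the part of slide, mouse order and time in these values was not tested.

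Differences by exposure in the clock genes lay within this spread. Dbp differed by 0.35 with an SE of 0.67, and Arntl by −0.30 with an SE of 0.53. Of 21 genes measured, 12 lay higher and 9 lower, with a median of 0.02 and 0 at an unadjusted p under 0.05. Since each slide held both groups, a comparison with slide as a fixed block was also made, and it called 0 of 41174 probes, with a lowest adjusted p of 0.0511 in the planned fit and 0.44 without background correction.

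**Figure D5:**
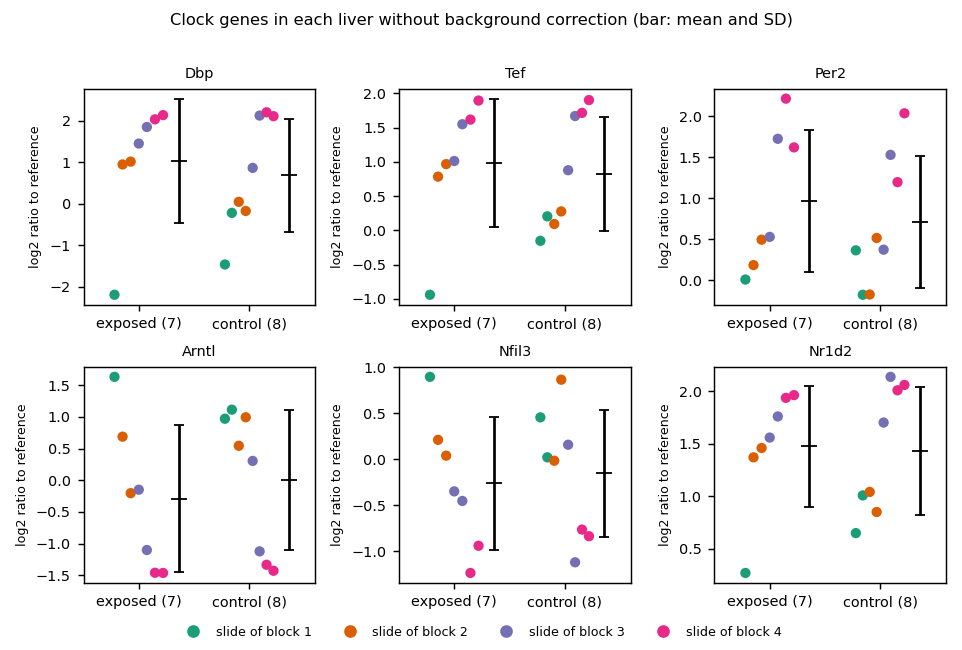
Log2 ratio to the reference (vertical axis) of clock genes in each liver, exposed and control, coloured by slide. Dbp averages −1.29 in block 1 and 2.12 in block 4, and Arntl 1.24 and −1.42. Within block 3 the SD between mice is 0.71 for Arntl and 0.69 for Per2.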

How the data were processed

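Total RNA from liver was labelled with Cy5 and hybridized against Cy3-labelled universal mouse reference RNA on 4-pack oligonucleotide arrays. The deposited scanner files, made by Agilent Feature Extraction 10.1.1.1 for liver and 9.5.3.1 for lung per the file headers, hold spot and background intensity in each channel, not normalized. The deposited table of log2 ratios was normalized by the authors with LOWESS, and its background correction is not given in the sources used here. Columns of marks set by the scanner software (outlier, well above background, saturated) were used as deposited. Probes were designed on mm7 per the lung headers and mm8 per the liver headers. Coordinates are those of mm7.

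Median spot signals were used. Spots marked as outliers were left out, normexp with an offset of 50 was applied, loess was run within arrays and replicate spots were averaged, giving 41174 probes from 43379 spots. Groups were compared with limma 3.58.1 in R 4.3.3 (lmFit, eBayes, Benjamini-Hochberg over all probes, threshold 0.05), the moderated test standing in for the MAANOVA statistic of the study. Single genes also got an exact two-sided permutation test that enumerated every one of 6435 regroupings into 7 and 8 (smallest possible p 0.000155, unadjusted). For genes named by their rank it used the arrays that ranked them and was not adjusted for that choice. A probe counted as measured when well above background in Cy5 on at least a share of 0.5 of the arrays of either group. A gene was read at its brightest probe unless another is named, and LOC624219 was read first at its dimmer probe. Lists are described by counts and medians without a test. Lung and liver effects were compared by a contrast over 28 arrays. Lung and liver with the same number came from the same mouse by the methods (12 mice), and their deviations from group means correlated at −0.0588 to 0.266 with a median of 0.0978. In the liver comparison each mouse is 1 sample, so its p-values measure the spread between mice, with that of slides and arrays included. In the contrast over 28 arrays, 12 mice gave an array of each tissue. The planned fit took these as independent, and mouse as a replicate block was the alternative.

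Genes named were the 12 highest and 12 lowest planned differences, the 2 highest and 2 lowest of each list, the LOC624219 transcript, genes the study names in lung, and cell type markers. Not every one of them is printed, and some are not reported here. The members and lists were chosen with earlier results of these data known. Alternatives covered background correction, signal, normalization, the authors' table, dim probes, slide, probes per gene and each array left out. Scripts were tested on simulated data.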

Additional observations from a re-analysis of the deposited data

Results flagged for a closer look

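A few mice stood apart from the rest of their group in genes named above. Control mouse 32 was high for Saa1 (3.66, next control 2.80), Lcn2 (1.25, next 0.28) and S100a8 (2.17, next −0.04). Exposed mouse 13 was high for Lyzs (1.45, next 0.95) and exposed mouse 1 was low for Dbp (−2.19, next 0.95). Of 128 groups of values examined, 5 held such a mouse, and chance gives about 1 in 20.

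The effect of exposure differed between lung and liver by the test of the difference in the planned fit for 7 genes. Lung minus liver was 1.45 for Noxo1, 0.95 for Ccl2, 0.35 for D18Bwg0362e, −0.65 for 9830134C10Rik, 2.23 for Saa3, 1.08 for Trem2 and 0.54 for Mmp2. In all 7 the planned values of the 2 tissues had opposite signs, but these genes were picked by their lung minus liver difference. The confidence interval of the liver value included 0 for Noxo1, Ccl2, 9830134C10Rik and Saa3. It excluded 0 for D18Bwg0362e, Trem2 and Mmp2. None of the 7 was called in liver. D18Bwg0362e was at 0.15 in lung and −0.21 in liver, with adjusted p-values of 0.12 and 0.079 by limma. Trem2 was at 0.82 and −0.25, and Mmp2 at 0.37 and −0.18. Without background correction D18Bwg0362e and Mmp2 were not among the called probes. In that setting Ccl2 was at 0.89 in lung and 0.03 in liver, with the same sign in both.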

How the results depend on the processing

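The count of 0 called probes in liver was the same under every alternative run, each array left out included. Probes at an unadjusted p under 0.05 numbered 3397 in the planned fit, 884 with the scanner's processed signals, 1034 with normexp without marked local background, 1583 in the authors' table and 5852 with slide as a fixed block, and 1744 without control mouse 24 to 4831 without control mouse 37. Gene signs were checked only without background correction, in the authors' table, with slide as a fixed block and with normexp without marked local background. They were also checked with each array left out of the planned fit in turn. Of 64 gene results, 43 kept the planned sign in all of these. Without background correction 13 changed sign, as they did in the authors' table and with normexp without marked local background, a setting chosen after seeing the data. In that order the values were −0.19, −0.14 and −0.23 for LOC624219, −0.63, −0.62 and −0.61 for its other probe, −0.056, −0.05 and −0.077 for Saa1, −0.082, −0.079 and −0.098 for Saa2, −0.17, −0.17 and −0.23 for Saa4, −0.034, −0.026 and −0.106 for Orm1, −0.32, −0.32 and −0.46 for Apoh, −0.088, −0.082 and −0.102 for Ttr, −0.17, −0.16 and −0.19 for Clec4f, −0.20, −0.19 and −0.26 for Cd5l, −0.009, −0.03 and −0.014 for Cyp4a10, −0.63, −0.59 and −0.63 for Slco1a1, and −0.27, −0.27 and −0.28 for Cyp2c44. Slide as a fixed block in the planned fit gave −0.001 for Slco1a1, 0.038 for Arntl and −0.093 for the other LOC624219 probe. In this section the name LOC624219 alone stands for its brighter probe, and its other probe is the dimmer one, shown above. Leaving out 1 array in turn, planned values ran from −0.057 to 0.23 for LOC624219 and −0.26 to 0.19 for its other probe, −0.022 to 0.26 for Saa1, −0.16 to 0.11 for Saa3, −0.13 to 0.084 for Lcn2, −0.11 to 0.20 for Apoh, −0.60 to 0.29 for S100a9, −0.28 to 0.45 for Slco1a1, −0.039 to 0.42 for Mt1, −0.42 to 0.11 for Arntl, −0.22 to 0.003 for Acly, −0.15 to 0.025 for Hpxn and −0.17 to 0.039 for Kng1. The cause was not tested. Probes called between lung and liver went from 7 to 50 without background correction and to 13 with mouse as a replicate block. No paired analysis was possible because the exposed and control livers share no mouse numbers, apart from that block over the tissues of a mouse.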
